A study of Mus musculus with 2 samples.

Results

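Solute carriers are membrane proteins that move nutrients, ions, metals and metabolites across the cell surface and the membranes of organelles, and their genes carry the prefix Slc followed by a family number. The genes described here were chosen by symbol and by depth: all matrix rows whose symbol begins with Slc and a digit and whose UMIs in both libraries together reached 200, without 4 genes set aside by the rule (Slc10a2, Slc51a, Slc51b and Slc12a2). Of 373 such rows, 369 remained after these 4, and 185 of them reached the minimum, out of 9841 genes of any kind that did. They belong to 44 families and were put into 16 functional groups. The other 184 rows stayed below the minimum, 62 of them with no UMI at all. Just inside the minimum lay Slc44a2 with 200 UMIs and Slc10a5 and Slc6a9 with 203 each, and just outside it Slc2a5 with 190 and Slc16a13 with 188. Of the 185 genes, 182 encode transporters and 3 share the prefix without being one (Slc9a3r1, Slc7a6os and Slc4a1ap).

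In the ileum, absorptive enterocytes of the villus carry transporters on the brush border, which faces the gut lumen, and others on the basolateral membrane, which faces the blood. Sodium-coupled carriers of the Slc5, Slc6 and Slc34 families take up sugars, amino acids and phosphate, the Slc15 family takes up peptides, and exchangers of the Slc7 family pass amino acids on, often in a pair with an Slc3 subunit. Families Slc30 and Slc39 move zinc and manganese, Slc25 works mostly in the inner mitochondrial membrane and Slc35 mostly in the Golgi apparatus and endoplasmic reticulum (ER).

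The data are 2 droplet libraries of ileal epithelium from C57BL/6 mice aged 8 weeks, 1 WT and 1 TNFAIP8-/- (called Tipe0-/- from here), with no treatment that sets the groups apart. TIPE0 is the protein of Tnfaip8, and the comparison asks how its loss in the whole animal alters the epithelium. Cells of several mice were pooled for each genotype, so each genotype is 1 library. No test between them was possible, and the intervals given cover counting error only and not the spread between mice. For both libraries, the labels give enteroids digested by collagenase together with dispase, and the methods give isolated enterocytes digested by DNase I and Dispase.

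The WT library held 3402 cells and 38127808 UMIs, and the Tipe0-/- library 2006 cells and 23897126 UMIs, with medians of 7760 and 7307.5 UMIs per cell. Levels are given as counts per 1000000 UMIs of the library or cell group (CPM), which needs no correction for gene length because the 3′ chemistry counts each captured molecule once. The targeted gene Tnfaip8 had 372 UMIs in WT (9.76 CPM, 8.79 to 10.8) and 57 in Tipe0-/- (2.39 CPM, 1.81 to 3.09). Mitochondrial genes took 6.59% and 8.56% of the UMIs. The methods call the material enterocytes, but clustering without any Slc gene gave 13 clusters with markers of 8 cell classes: stem-like, cycling-like, enterocyte-like, goblet-like, Paneth-like, tuft-like, enteroendocrine-like and lymphocyte-like. Of the clusters, 2 stayed unnamed and are called by a leading gene, Ccne2 or Ugt2b5. The goblet-like class holds Spdef-led and Zg16-led cells. The 14 goblet markers summed to 23355 CPM in WT and 24600 CPM in Tipe0-/- Spdef-led cells, and to 133043 and 133460 CPM in Zg16-led cells. The 16 cycling markers summed to 1757 and 1748 CPM in Spdef-led cells, against 2653 and 2452 CPM in cycling-like cells. A goblet-like level is thus not that of mature goblet cells alone. Lymphocyte-like cells numbered 90 in WT and 17 in Tipe0-/-, and enteroendocrine-like cells 28 and 17, so levels in these classes are coarse. The libraries shared 9 cell barcodes.

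Solute carrier transcripts were concentrated in enterocyte-like cells. Together the 185 genes made up 6610 CPM of the WT library (6585 to 6636) and 6803 CPM of the Tipe0-/- library (6770 to 6836). Their summed level was highest in the enterocyte-like cluster led by Apoa4, at 16643 CPM in WT and 19669 CPM in Tipe0-/-, and next in the enterocyte-like cluster led by Arg2, at 10211 and 10533 CPM. As a share of UMIs it was lowest in Paneth-like cells, at 1803 and 2480 CPM. There, 12 Paneth markers alone summed to 189477 and 188833 CPM, so this share is not a level per cell. The median log2 ratio of all genes in Paneth-like cells, Tipe0-/- over WT, was 0.46. Stem-like cells held 5118 and 5549 CPM, and goblet-like cells of the cluster led by Zg16 held 7439 and 7718 CPM. Without the mitochondrial carriers the Apoa4-led cluster was at 12613 CPM and Paneth-like cells at 1180 CPM in WT.

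Of the 185 genes, 76 (41.1%) had their highest class level in enterocyte-like cells in both libraries, against 14.5% of the 9841 genes. Lymphocyte-like cells held the highest level of 12 genes in both libraries (6.49%, against 11.2% of all genes). Goblet-like cells held that of 6 (3.24%, against 2.02%) and enteroendocrine-like cells of 6 (3.24%, against 4.46%). Stem-like cells held that of 4 (2.16%, against 4.59%) and Paneth-like cells of 1 (0.54%, against 0.53%). The highest class was the same in both libraries for 112 genes (60.5%), against 45.7% of all genes. The 76 included 14 of 32 amino acid and peptide carriers, 9 of 19 zinc and manganese carriers, 10 of 20 Golgi and ER carriers, 11 of 33 mitochondrial carriers, 5 of 12 vitamin and choline carriers and 4 of 10 sugar carriers.

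**Figure D1:**
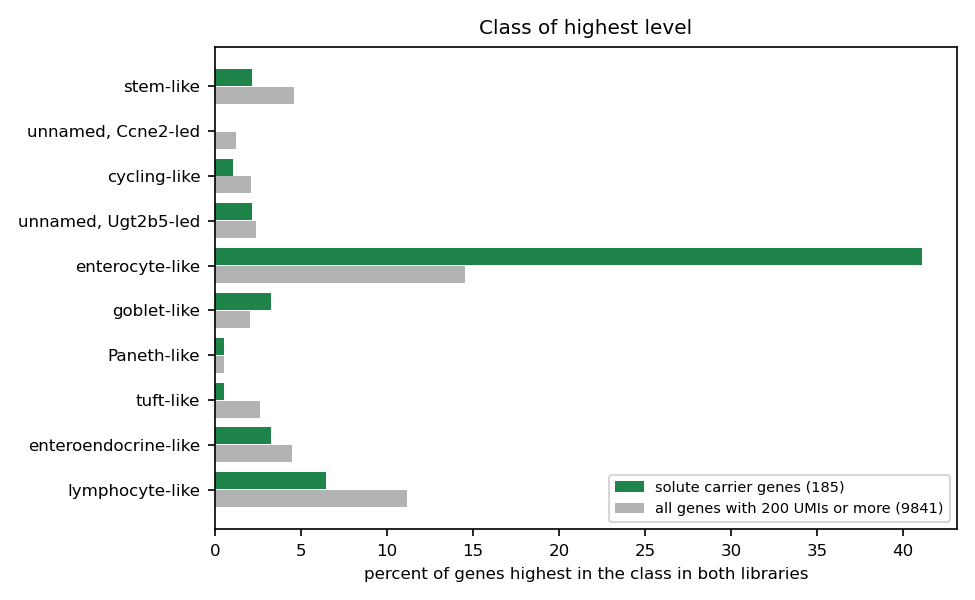
Percent of genes whose highest level lay in each cell class in both libraries (x axis, from 0), for the 185 solute carrier genes in green and all 9841 genes with 200 or more UMIs in grey. The enterocyte-like bar is 41.1% for solute carriers and 14.5% for all genes.

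Families differed in how steeply their summed levels followed the absorptive clusters. The largest family, Slc25 with 33 genes, summed to 2372 CPM in WT stem-like and 4030 CPM in WT Apoa4-led cells, and to 2278 and 4223 CPM in Tipe0-/-. The 19 Slc35 genes encode mostly carriers of the Golgi apparatus and ER, many of them for nucleotide sugars. These 19 genes summed to 462 and 900 CPM in the same WT groups and to 510 and 1038 CPM in Tipe0-/-, with 852 and 826 CPM in Zg16-led goblet-like cells. The Slc5, Slc6 and Slc7 families were steeper than these, and some smaller families were steeper still. The 2 Slc13 genes stood at 5.97 CPM in stem-like and 967 CPM in Apoa4-led cells of WT, and at 6.17 and 1133 CPM in Tipe0-/-. The 3 Slc15 genes stood at 16.7 and 296 CPM in WT and at 14.6 and 510 CPM in Tipe0-/-. Slc34a2, alone in its family here, stood at 2.78 and 469 CPM in WT and at 3.85 and 1004 CPM in Tipe0-/-. The 5 Slc5 genes stood at 96.2 CPM in stem-like and 1468 CPM in Apoa4-led cells of WT, and at 105 and 1558 CPM in Tipe0-/-. The 8 Slc6 genes stood at 110 and 1358 CPM in WT and at 153 and 1928 CPM in Tipe0-/-, and the 9 Slc7 genes at 144 and 702 CPM in WT and at 164 and 806 CPM in Tipe0-/-. Slc38, whose 6 genes carry glutamine and other small neutral amino acids, had the opposite order, with 185 CPM in stem-like and 85.2 CPM in Apoa4-led cells of WT, and 212 and 111 CPM in Tipe0-/-. Slc12, whose 4 genes include Slc12a8, was highest in Zg16-led goblet-like cells at 184 and 202 CPM. A family sum is set mostly by its most abundant genes.

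Levels of 3 brush border genes were higher in each step from stem-like to Arg2-led to Apoa4-led cells in both libraries, in clusters that were built without these genes. Slc5a1, the sodium-glucose cotransporter, was at 76.4 CPM in WT stem-like cells, 216 CPM in the Arg2-led and 843 CPM in the Apoa4-led enterocyte-like cells, and the Tipe0-/- values were 74.4, 237 and 972 CPM. Slc13a1, a sulphate carrier, stood at 5.17, 328 and 760 CPM in the same WT groups and at 3.85, 274 and 850 CPM in Tipe0-/-. Slc9a3r1, a scaffold protein of the brush border and not a transporter, stood at 53.7, 294 and 961 CPM in WT and at 55.1, 275 and 1024 CPM in Tipe0-/-. Slc40a1, the iron exporter ferroportin, had another order. Its level was 180 CPM in the Arg2-led and 68.1 CPM in the Apoa4-led WT cells, with 127 CPM in the unnamed Ugt2b5-led cells, and the order was the same in Tipe0-/-, at 263, 89.4 and 194 CPM.

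Ranked by the lower of the 2 libraries' ratios of the highest to the next class, the leading enterocyte-like genes were Slc7a15, an amino acid carrier, Slc25a48, a mitochondrial carrier, and Slc34a2, a phosphate cotransporter. Slc7a15 was at 12.1 CPM, on 80 UMIs, in WT enterocyte-like cells, and no other WT class held more than 4 of its UMIs, so its WT ratio rests on a few UMIs. In Tipe0-/- it was at 47.6 CPM on 149 UMIs, against 1.31 CPM on 10 UMIs in goblet-like cells. For Slc25a48 the ratios were 16.2 and 23.7, and for Slc34a2 they were 13.1 and 34.3. Slc6a14 had a WT ratio of 22.6 but ranked lower, because its next class in Tipe0-/- was lymphocyte-like at 10.8 CPM, which is 1 UMI. Classes outside the absorptive lineage had fewer such genes. Slc12a8, a member of the cation-chloride cotransporter family, was highest in goblet-like cells at 72.9 CPM in WT and 63.2 CPM in Tipe0-/-, 4.29 and 4.45 times the next class. Slc1a4, a carrier of neutral amino acids, was highest in Paneth-like cells at 29.8 and 23.6 CPM, and Slc27a2, a fatty acid transport protein, in stem-like cells at 59.7 and 59.0 CPM. Slc18a1, which loads monoamines into secretory vesicles, reached 47.3 and 72.9 CPM in the 28 and 17 enteroendocrine-like cells, where 1 UMI is 3.38 and 5.21 CPM. Slc25a39 in tuft-like cells exceeded its next class by ratios of 1.15 and 1.17, and no gene met the naming rule in enteroendocrine-like or lymphocyte-like cells.

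**Figure D2:**
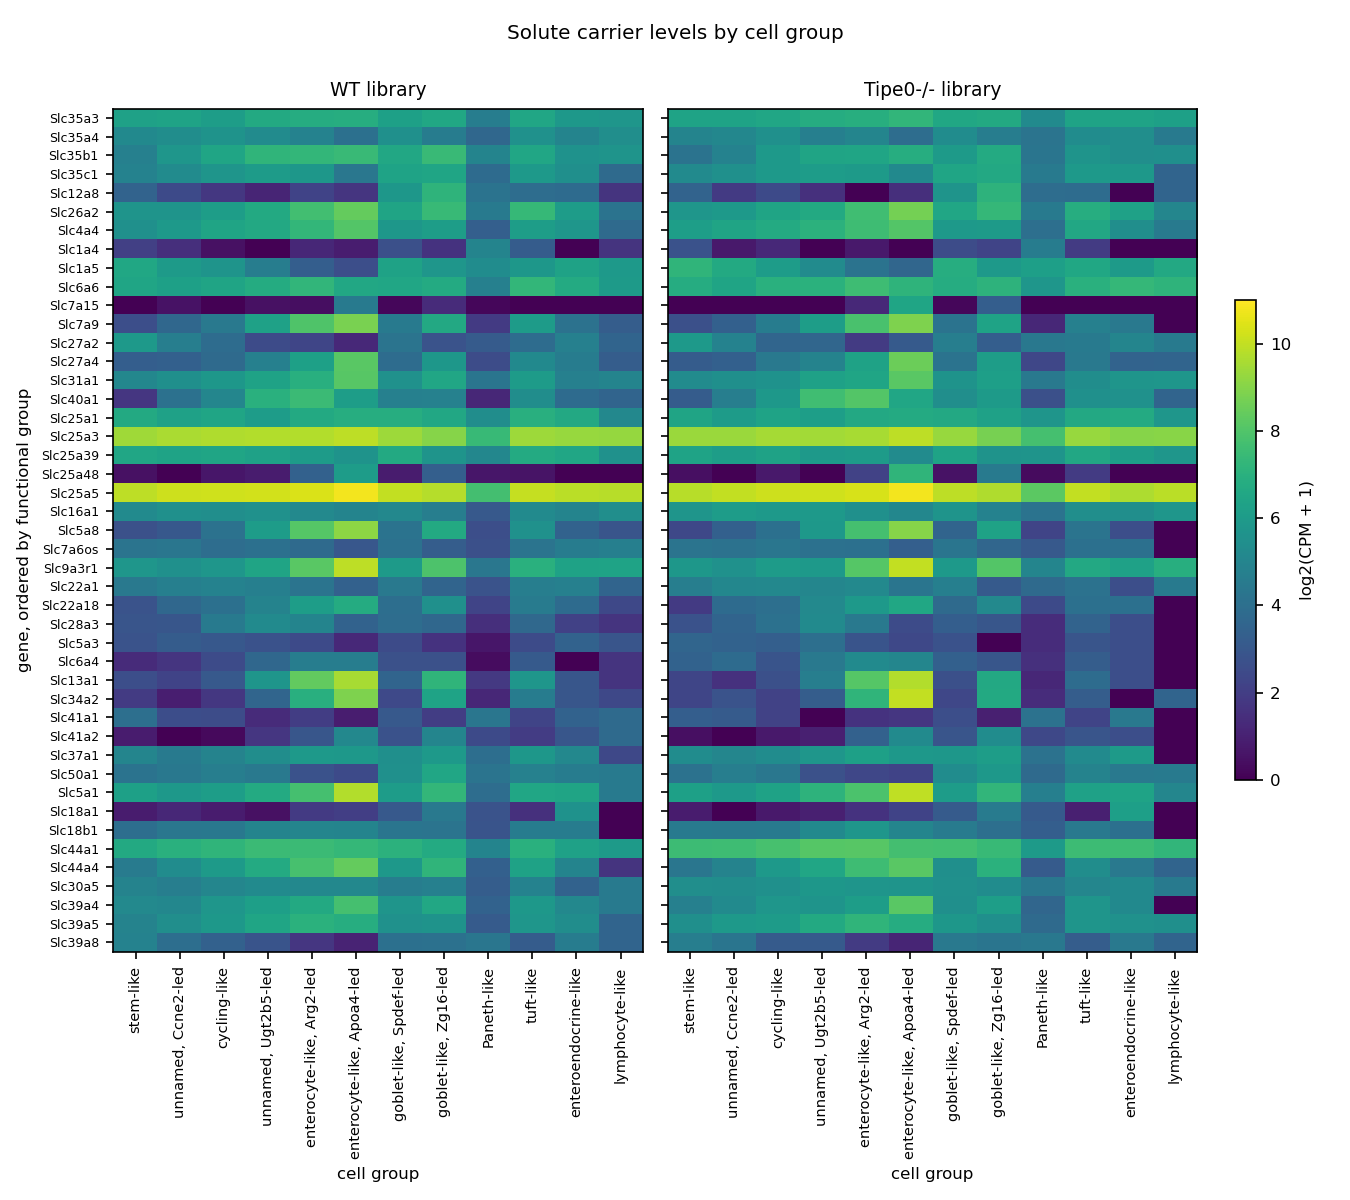
Level of 45 solute carrier genes (rows, ordered by functional group) in 12 cell groups (columns) of the WT and Tipe0-/- libraries, as log2(CPM + 1) in colour. The Apoa4-led enterocyte-like column holds 843 CPM of Slc5a1 in WT and the Paneth-like column 14.5 CPM.

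Between the libraries, most solute carriers lay within 1.5-fold of the ratio shared by all genes. Differences are log2 ratios of CPM, Tipe0-/- over WT, with 0.5 added to each UMI sum. The median over all 9841 genes was 0.15, and a gene is called higher or lower where its ratio lay at least 1.5-fold (0.58 on the log2 scale) from that median. The median of the 185 genes was 0.12, and 126 of them (68.1%) had a ratio above 0, against 70.7% of all genes. Of the 185, 8 (4.32%) were higher and 9 (4.86%) lower, where 2.44% and 4.46% of all genes were. The ratio of whole libraries does not tell fewer cells from fewer transcripts per cell: enterocyte-like cells made up 22.5% of the WT cells (21.1 to 23.9%) and 19.4% of the Tipe0-/- cells (17.7 to 21.2%). CPM follow the share of UMIs, and these cells held 6618465 of 38127808 UMIs in WT and 3133110 of 23897126 in Tipe0-/-. With both libraries given the same makeup of cell classes, by each class's share of all UMIs, 10 genes were higher (5.41%, against 1.88% of all genes) and 5 lower (2.7%, against 3.47%).

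**Figure D3:**
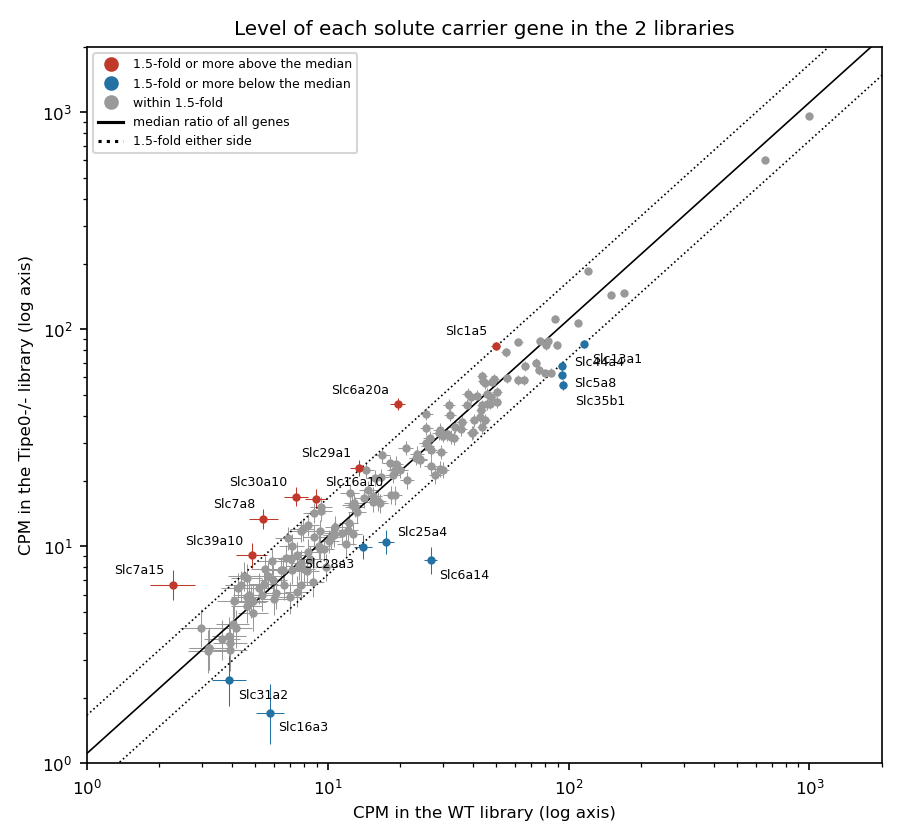
CPM of each of the 185 genes in WT (x axis) and Tipe0-/- (y axis), both on log axes, with exact Poisson intervals as bars; the solid line is the median ratio of all genes and the dotted lines lie 1.5-fold from it. The 8 red genes lie above the upper dotted line and the 9 blue genes below the lower one.

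Amino acid and peptide carriers, 32 genes, supplied 5 of the 8 higher genes and 1 of the 9 lower ones. Of all genes, 2.44% were higher and 4.46% lower. The median log2 ratio of the 32 was 0.26, against 0.15 for all genes. The functional groups were chosen with earlier results of these data known, so this count is a description only. Slc6a20a, a carrier of proline and other imino acids, had 746 UMIs in WT (19.6 CPM, 18.2 to 21.0) and 1082 in Tipe0-/- (45.3 CPM, 42.6 to 48.1), a log2 ratio of 1.21 (1.07 to 1.35) that became 1.49 with the same makeup. This gene also stands in a list that the study chose on these same samples, so its direction is not independent evidence, and reads could be shared with its near copy Slc6a20b. Slc7a15 had 87 and 159 UMIs, at 2.28 and 6.65 CPM, a log2 ratio of 1.54 (1.16 to 1.94). Slc7a8, a basolateral exchanger of neutral amino acids, had 206 and 320 UMIs, or 5.40 and 13.4 CPM, with a ratio of 1.31 (1.05 to 1.57). Slc16a10, which carries aromatic amino acids, was at 8.97 and 16.6 CPM, a ratio of 0.89 (0.68 to 1.10). Slc1a5, a glutamine carrier, was at 49.7 and 84.1 CPM, a ratio of 0.76 (0.67 to 0.85) that was 0.60, and within 1.5-fold, with the same makeup. Against these, Slc6a14, a broad carrier of neutral and basic amino acids, was the lower one, with 1019 UMIs in WT (26.7 CPM, 25.1 to 28.4) and 206 in Tipe0-/- (8.62 CPM, 7.48 to 9.88), a log2 ratio of -1.63 (-1.86 to -1.42).

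The other 26 amino acid and peptide carriers lay within the threshold. Among them was Slc7a9, the cystine and basic amino acid exchanger, at 84.7 and 63.2 CPM with a log2 ratio of -0.42, and its partner subunit Slc3a1 at 29.2 and 22.8 CPM with -0.35. With the same makeup these became -0.12 and -0.03. Slc6a19 had a ratio of 0.52 that became 0.87, past 1.5-fold, with the same makeup, and Slc15a1 one of 0.32 that became 0.67, still within it. Slc6a6, the taurine carrier, was at 88.1 and 112 CPM, a ratio of 0.35.

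**Figure D4:**
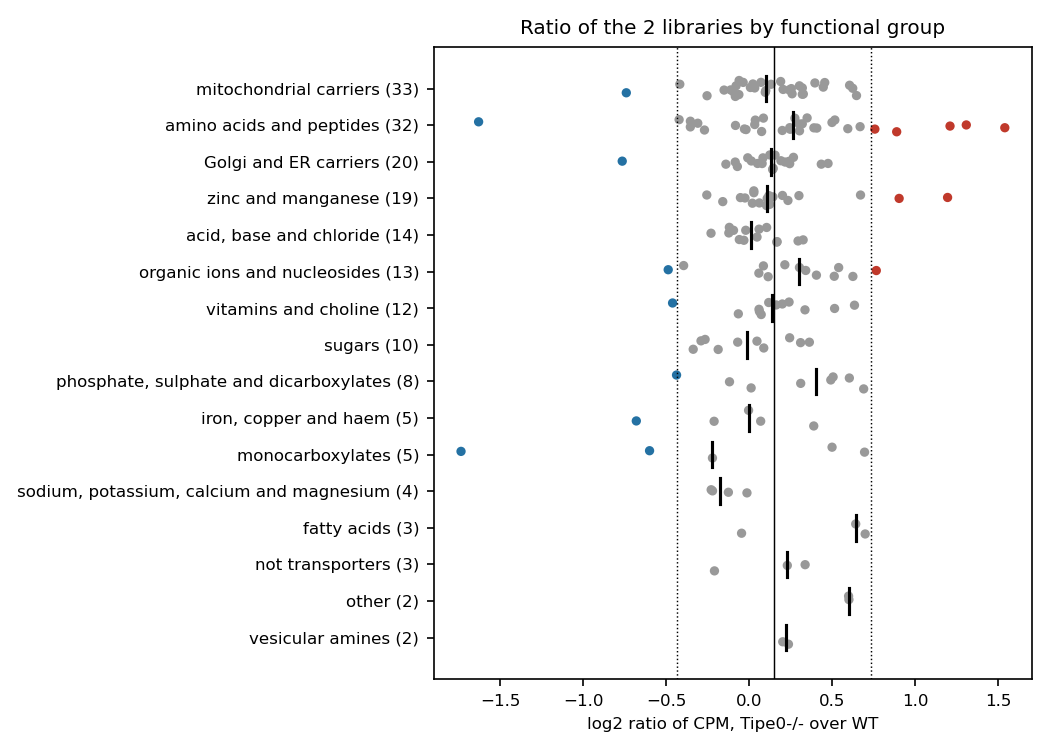
Log2 ratio of CPM, Tipe0-/- over WT (x axis), of each gene by functional group (y axis, number of genes in brackets); black bars are group medians, the solid line the median of all genes and the dotted lines 1.5-fold from it, with higher genes red and lower genes blue. The amino acid row holds 5 red points and 1 blue point.

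Among metal carriers, the 2 higher genes were Slc30a10, a manganese exporter, at 282 and 405 UMIs or 7.40 and 16.9 CPM with a log2 ratio of 1.195 (0.97 to 1.42), and Slc39a10, a zinc importer, at 4.85 and 9.08 CPM with a ratio of 0.90 (0.61 to 1.195). The zinc importers with the highest levels lay within 1.5-fold: Slc39a4 was at 65.2 and 58.4 CPM and Slc39a5 at 55.3 and 59.7 CPM. Of the 5 iron, copper and haem genes, Slc31a2, a copper carrier, was lower at 3.91 and 2.43 CPM, a ratio of -0.68 (-1.15 to -0.24) on 149 and 58 UMIs; with cells thinned to 3000 UMIs it was -0.21, within 1.5-fold. Slc40a1 was at 44.1 and 57.7 CPM (ratio 0.39) and the copper importer Slc31a1 at 75.0 and 64.8 CPM (ratio -0.21).

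Sugar carriers were 10 genes with none past the threshold and a median of -0.01, and 0.03 with the same makeup. Slc5a1 itself was at 150.5 and 143 CPM. Of 8 phosphate, sulphate and dicarboxylate carriers, Slc13a1 was called lower at 116 and 85.5 CPM, a ratio of -0.44 (-0.51 to -0.36), but was at -0.09 with the same makeup. Slc34a2 went from 61.9 to 87.1 CPM, a ratio of 0.49 (0.41 to 0.58) within the threshold that was 0.84 and past it with the same makeup. Monocarboxylate carriers held 2 lower genes of 5, with a group median of -0.22, and 0.009 with the same makeup. The other 3 lay within the threshold, among them Slc16a6 at a ratio of 0.70 and Slc16a1 at 0.50. Slc16a3, a lactate exporter, had 220 and 41 UMIs, or 5.77 and 1.72 CPM, a ratio of -1.74 (-2.27 to -1.26). Slc5a8, a sodium-coupled carrier of short-chain fatty acids, was at 93.8 and 61.9 CPM, a ratio of -0.60 (-0.69 to -0.51) that became -0.28 with the same makeup. The choline-like carrier Slc44a4 (-0.46) and the nucleoside carrier Slc28a3 (-0.49) were called lower too and were within 1.5-fold with the same makeup, at -0.29 and -0.38. Slc29a1, a nucleoside carrier, was called higher at 13.5 and 23.0 CPM, a ratio of 0.77, and was at 0.60 and within the threshold with the same makeup.

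Among carriers of organelles, 1 of 20 Golgi and ER genes and 1 of 33 mitochondrial genes were called, both lower. The mitochondrial carrier Slc25a48 had a ratio of 0.61 within the threshold that became 0.94, past it, with the same makeup. Slc35b1, which exchanges ATP and ADP across the ER membrane, had 3603 and 1329 UMIs, or 94.5 CPM (91.4 to 97.6) and 55.6 CPM (52.7 to 58.7), a log2 ratio of -0.76 (-0.86 to -0.67). Slc25a4, an ADP/ATP carrier of mitochondria, was at 17.5 and 10.5 CPM, a ratio of -0.74 (-0.96 to -0.53), and at -0.51 with the same makeup. Its level was highest in lymphocyte-like cells, at 158 and 108 CPM, whose 13 markers summed to 132 CPM in the WT and 32.3 CPM in the Tipe0-/- library, and the part of these cells in its ratio was not tested beyond the same-makeup value. The far more abundant Slc25a5, which does the same work and resembles Slc25a4 closely enough that reads could be shared, was at 999 and 957 CPM, a ratio of -0.06. Slc25a3, the phosphate carrier, was at 655 and 606 CPM. Slc44a1, a choline carrier of the cell surface, was at 120 and 186 CPM with a ratio of 0.63 (0.57 to 0.69). That ratio is 0.48 above the median of all genes and so within the threshold.

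The other groups held no further called gene. The 14 carriers of acid, base and chloride had a median of 0.01, with Slc26a2, a sulphate and chloride exchanger, at 110 and 107 CPM and Slc4a4, a basolateral bicarbonate carrier, at 82.0 and 88.2 CPM. Of 3 fatty acid transport proteins, Slc27a4 was at 47.0 and 45.5 CPM and Slc27a2 at 14.4 and 22.4 CPM, a ratio of 0.64 (0.47 to 0.82) within the threshold. The 4 carriers of sodium, potassium, calcium and magnesium had a median of -0.17, and Slc41a2, a magnesium carrier, was at 7.95 and 7.87 CPM. The 2 carriers of vesicular amines had ratios of 0.20 and 0.24. Slc6a4, the serotonin transporter, was at 7.76 and 11.8 CPM, a ratio of 0.60 within the threshold that was 0.75 and past it with the same makeup.

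Within enterocyte-like cells alone, 102 of the genes had 200 or more UMIs. Of these, 10 (9.8%) were higher, where 4.58% of the 4582 genes with that many UMIs were, and 5 (4.9%) lower, where 4.95% were; the medians were 0.19 and 0.09. The higher genes were Slc7a15 (1.97), Slc6a20a (1.57), Slc25a36 (1.48), Slc30a10 (1.42), Slc25a48 (1.01), Slc16a10 (0.98), Slc34a2 (0.96), Slc6a19 (0.92), Slc35g1 (0.77) and Slc15a1 (0.73). Slc6a19 is the main brush border carrier of neutral amino acids and Slc15a1 the peptide carrier. The lower genes were Slc6a14 (-1.22), the sugar carrier Slc5a9 (-0.88), Slc35b1 (-0.70), the zinc carrier Slc39a11 (-0.65) and the mitochondrial acylcarnitine carrier Slc25a20 (-0.60). The mature enterocyte markers were not level between the libraries in these cells: the 22 markers summed to 51548 CPM in WT and 67183 CPM in Tipe0-/- in the Apoa4-led cluster, and to 32603 and 44573 CPM in the Arg2-led cluster. Their part in the ratios was not tested. At a finer clustering resolution of 1.2, the enterocyte-like cells split in part by library, with 1 cluster of 381 WT and 39 Tipe0-/- cells and another of 9 and 162. They also did so at a resolution of 0.8 when no variable gene was left out. There, 1 enterocyte-like cluster held 443 WT and 33 Tipe0-/- cells and another 2 and 186.

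The 2 enterocyte-like clusters agreed for some genes and not for others. Slc6a20a stood at 81.5 CPM in WT (72.4 to 91.4) and 260 CPM in Tipe0-/- (237 to 286) in the Apoa4-led cells, and at 74.7 CPM (65.3 to 85.1) and 201 CPM (178 to 225) in the Arg2-led cells. The intervals of the libraries did not overlap in either cluster. Slc30a10 was at 51.1 and 128 CPM in the Apoa4-led and 12.8 and 46.0 CPM in the Arg2-led cells. Slc34a2, in contrast, was at 469 CPM (447 to 492) and 1004 CPM (956 to 1053) in the Apoa4-led cells but at 122 CPM (110 to 135) and 144 CPM (125 to 165) in the Arg2-led cells, where the intervals overlapped. Slc7a15 was found almost wholly in the Apoa4-led cells, at 22.1 and 87.6 CPM, with 1 and 2 UMIs in the Arg2-led cells. Slc6a14 was at 240 CPM (224 to 256) and 107 CPM (92.2 to 124) in the Apoa4-led cells and at 17.8 and 3.44 CPM, on 54 and 5 UMIs, in the Arg2-led cells. Slc25a48 was at 65.9 and 148 CPM in the former and at 9.55 and 3.44 CPM, on 29 and 5 UMIs, in the latter.

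Shares of cells differed in the same directions for the 2 genes compared. After each cell was thinned to 3000 UMIs, Slc6a20a was found in 18.7% of WT (15.2 to 22.7%) and 46.9% of Tipe0-/- Apoa4-led cells (40.3 to 53.6%), and in 40.0% and 74.3% without thinning. In Paneth-like cells, taken as the background with median depths of 20981.5 and 26111 UMIs before thinning, the thinned shares were 0.71% and 0 of 139 cells, which allows up to 2.16%. Slc6a14 was found in 36.3% of WT (31.8 to 41.0%) and 15.04% of Tipe0-/- Apoa4-led cells (10.6 to 20.4%), with Paneth-like shares of 0.71% and 0 of 139. The UMIs of Slc6a14 were unevenly spread: the 10 richest cells held 15.9% of them in WT and 43.2% in Tipe0-/-. For Slc6a20a these shares were 6.97% and 7.49%.

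**Figure D5:**
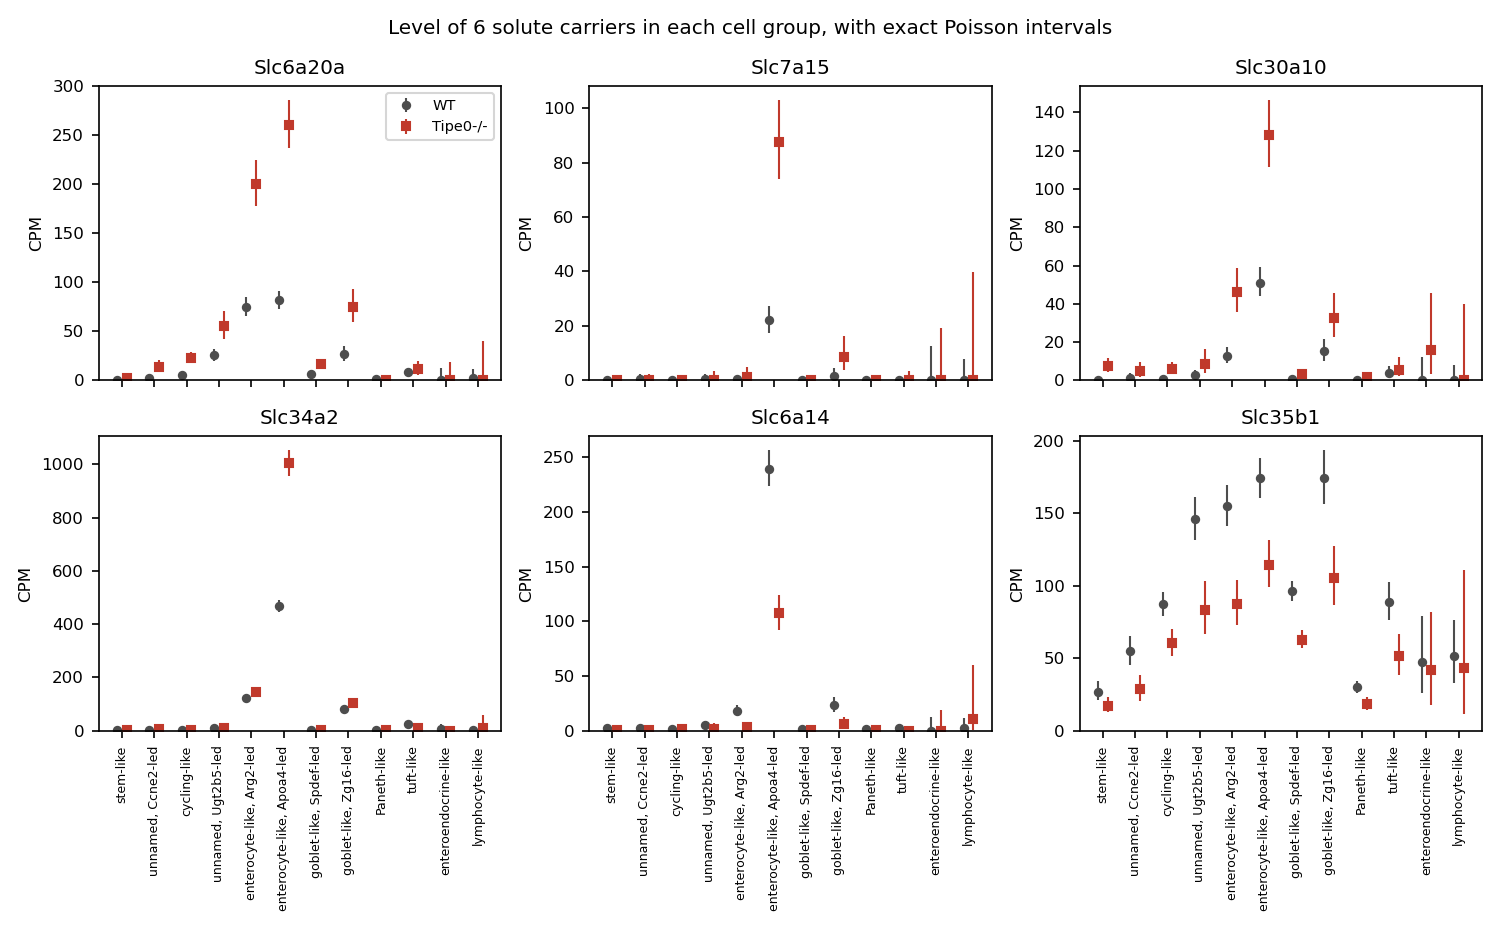
CPM of 6 genes (y axes, from 0) in 12 cell groups (x axis), WT as grey circles and Tipe0-/- as red squares, with exact Poisson intervals for counting error. The red square of Slc6a20a lies at 260 CPM in Apoa4-led cells against 81.5 CPM in WT, while Slc35b1 is lower in Tipe0-/- in each group drawn.

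A few genes differed in the same direction in all the larger cell groups, as did a similar or larger share of all genes. Over the 10 cell groups with more than 50 cells in each library, Slc35b1 lay below the median ratio of the group in 10 of 10, with intervals that excluded it in 10, and Slc44a1 lay above it in 10 of 10, also with 10 intervals. Slc1a5 and Slc30a5 lay above in 10 of 10 with 9 intervals each, and Slc7a8 and Slc40a1 with 8 each. Groups cut from 1 library share that library and are not replicates. In all, 16 of the 185 genes (8.65%) lay above in all 10 groups, against 7.59% of all genes, and 4 (2.16%) below, against 5.15%. The numbers of intervals were not summarised over all genes.

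Promoters are shown for 4 of the genes whose levels differed most within enterocyte-like cells, as the 250 bases before the RefSeq start on GRCm38.p6, the patch series of the mm10 build used for the counts, each read 5′ to 3′ on the strand of its gene. Capitals mark, on either strand, GATAAG, the letters of a GATA factor site, TTTATNG, those of a CDX site, and CAAAGTC, a core of the HNF4 site. Slc7a15 lies on the minus strand with its window at chr12:8599067-8599316, Slc30a10 on the plus strand at chr1:185454598-185454847, Slc6a20a on the minus strand at chr9:123678833-123679082 and Slc6a14 on the plus strand at chrX:21714650-21714899.
Slc7a15: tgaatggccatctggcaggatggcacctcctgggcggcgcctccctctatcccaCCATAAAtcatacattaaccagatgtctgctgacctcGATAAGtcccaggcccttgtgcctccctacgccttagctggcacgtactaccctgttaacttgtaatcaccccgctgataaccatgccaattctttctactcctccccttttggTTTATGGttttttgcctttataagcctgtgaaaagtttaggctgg
Slc30a10: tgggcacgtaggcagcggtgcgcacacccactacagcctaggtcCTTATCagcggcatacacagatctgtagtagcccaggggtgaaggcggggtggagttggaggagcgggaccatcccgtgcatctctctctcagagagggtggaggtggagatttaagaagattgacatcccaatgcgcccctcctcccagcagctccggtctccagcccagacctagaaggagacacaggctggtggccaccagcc
Slc6a20a: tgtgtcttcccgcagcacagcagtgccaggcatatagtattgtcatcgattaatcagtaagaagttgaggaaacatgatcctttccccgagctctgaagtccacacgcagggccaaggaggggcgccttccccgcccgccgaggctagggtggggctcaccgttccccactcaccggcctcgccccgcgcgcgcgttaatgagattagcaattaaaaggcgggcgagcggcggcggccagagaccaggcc
Slc6a14: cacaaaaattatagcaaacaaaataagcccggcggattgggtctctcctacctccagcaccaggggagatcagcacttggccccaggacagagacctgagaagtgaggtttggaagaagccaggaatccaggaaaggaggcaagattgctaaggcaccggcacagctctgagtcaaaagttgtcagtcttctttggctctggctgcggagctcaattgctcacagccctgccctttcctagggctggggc
The window of Slc7a15 held letters of a GATA and a CDX site and that of Slc30a10 a GATA site, while none of the 3 was found in those of Slc6a20a and Slc6a14.

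Counts of these letters are given beside their share in all promoters. A promoter was listed for 141 of the 185 genes, the first one where a gene has several, and for 59 of the 76 that were highest in enterocyte-like cells. GATAAG stood in 10 of the 141 (7.09%) and 6 of the 59 (10.2%), against 6.6% of all 27025 promoters. CAAAGTC stood in 8 (5.67%) and 5 (8.47%), against 3.8%, and TTTATNG in 6 (4.26%) and 3 (5.08%), against 10.2%. The longer HNF4 letters CAAAGTCCA, which contain CAAAGTC, and CAAAGGTCA stood in 1 gene each, against 0.38% and 0.41%, and TTTATGG, a case of TTTATNG, in 2, against 2.45%. A shorter form of the HNF1 site stood in 1 and the full site in 0, against 0.13% and 0.01%, and TATAAA in 8, against 13.0%. Those 9 motifs were searched on both strands and no other was. A match is a description of the sequence only.

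The solute carriers work with other proteins, of which 23 were listed and 18 had 200 or more UMIs. Of these, 3 were higher and 1 lower, with a median of 0.09. Among all 9841 genes, 2.44% were higher and 4.46% lower. The partners were chosen with earlier results of these data known, so their count is a description only. The brush border scaffold Pdzk1 was at 7.89 and 18.3 CPM (log2 ratio 1.21), the water channel Aqp1 at 42.9 and 94.3 CPM (1.14), and the chloride channel Cftr at 52.9 and 92.7 CPM (0.81). Car4, a carbonic anhydrase of the brush border, was at 153 and 53.4 CPM (-1.52).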

How the data were processed

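The authors prepared 2 libraries with 3′ v2 chemistry, aligned the reads to mm10 and deposited a raw count of UMIs per cell for 27998 genes; the submitters' processing notes name Cell Ranger. The counts are not normalized. The members, functional groups, partners and motifs were chosen with earlier results of these data known. Clusters came from Seurat 5.3.0 in R 4.3.3, on 495 of 582 variable genes, without Slc genes and 117 genes of the study's own genotype comparison, with 14 principal components and a resolution of 0.8. Each cluster was tested only for the class whose markers scored highest in it. It was named where at least 3 of these stood in 10% or more of its cells and at 1.5 times the share of other cells. A name was dropped where the leading genes went against it. The Ccne2-led cluster was thus tested only for stem markers (1 of 12 passed) and the Ugt2b5-led one only for lymphocyte markers (0 of 13). In the latter the 22 enterocyte markers summed to 11782 CPM in WT and 11983 CPM in Tipe0-/-. The rule for naming clusters, the split into cell groups and the weighting of classes by UMIs were set after the clusters were seen. Doublets were scored with scanpy 1.11.5, whose call of 15 and 3 cells did not work, so no cell was removed.

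Sums of UMIs were computed in Python 3.11.15 with numpy 2.4.6 and scipy 1.17.1. CPM carry exact 95% Poisson intervals, ratios exact binomial and shares Clopper-Pearson intervals, all for counting error only. A count of 0 is limited by 3 counts. No test between genotypes was run, because each has 1 library. Thinning left out no cell. Genes are named as the 10 with the highest CPM, up to 10 with the largest ratios in each direction at 10 CPM or more in the higher library, up to 3 per class by preference with at least 20 UMIs in each library, 2 per functional group, and those next to the minimum. Slc39a10, Slc16a3, Slc31a2, Slc3a1, Slc6a19, Slc25a36, Slc35g1, Slc15a1, Slc5a9, Slc39a11, Slc26a6 and Slc43a2 were added after their values were seen. Matplotlib 3.10.9 drew the figures. Values of some partner genes are not reported here.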

Additional observations from a re-analysis of the deposited data

Results flagged for a closer look

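Of the 91 solute carrier genes with at least 200 UMIs in 2 or more cell classes, for 3 (3.3%) the ratio of Tipe0-/- to WT pointed one way in one cell class and the opposite way in another, with each counting interval clear of 0 and of the class median. Of all 5533 genes with that many UMIs, 247 (4.46%) met the same rule, so the share of solute carrier genes was no larger than the background. The difference between the classes was not tested, since each genotype has 1 library. Slc26a6, an apical anion exchanger, had a log2 ratio of 0.38 (0.25 to 0.51) in enterocyte-like cells and -0.79 (-1.19 to -0.41) in goblet-like cells. The goblet-like class pools a Spdef-led and a Zg16-led cluster, and the Zg16-led cells supplied 20.4% of its UMIs in WT and 13.7% in Tipe0-/-. The 22 enterocyte markers summed to 12456 and 13396 CPM in the Zg16-led and to 2323 and 1966 CPM in the Spdef-led cells. By cluster the ratio of Slc26a6 was -0.96 (-1.64 to -0.33), on 69 and 30 UMIs, in the Spdef-led and -0.18 (-0.69 to 0.30) in the Zg16-led cells. Slc43a2, a carrier of neutral amino acids, stood at 0.30 (0.18 to 0.41) in enterocyte-like and -0.27 (-0.48 to -0.05) in goblet-like cells. Within the Spdef-led and the Zg16-led cluster it was -0.15 (-0.43 to 0.12) and -0.03 (-0.38 to 0.31), so neither cluster alone had an interval clear of 0. Slc26a2, a sulphate carrier, stood at 0.31 (0.07 to 0.55) in cycling-like and -0.52 (-0.83 to -0.22) in tuft-like cells. The 22 enterocyte markers moved the same way in these classes, from 1970 to 3158 CPM in cycling-like and from 6264 to 2507 CPM in tuft-like cells. The part of the markers and of the cluster makeup in these ratios was not tested. The whole-library ratios of Slc26a6, Slc43a2 and Slc26a2 were -0.09, -0.08 and -0.03.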

How the results depend on the processing

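The count of higher genes was 8 and that of lower genes 9, of 185. The larger shifts came from the minimum, where fewer or more genes are measured. With at least 50 UMIs the counts were 15 and 14 of 220, and with at least 1000 they were 3 and 3 of 96. With no minimum the counts were 41 and 47 of 307. With the mean of each cell's CPM 15 genes were higher, with cells thinned to 3000 UMIs 14, and with the same makeup 5 were lower; the cause was not tested. The median ratio of 0.12 was 0.060 with mitochondrial and the 20 most abundant genes out of the totals and 0.066 with at least 1000 UMIs; the tolerance of 0.05 was set after the data were seen. Within enterocyte-like cells 3 genes, not 5, were lower with 2000 variable genes by vst and with all variable genes. Of the settings added after the data were seen, the Apoa4-led cluster alone gave 14 higher and 3 lower of 75, and the Arg2-led cluster alone 2 and 2 of 54. The share of all genes called was counted only for the main results, including the same makeup of the main classes. It was not counted for either cluster alone, so these counts have no background beside them. A count was taken as the same where it changed by 1.5-fold or less. The lower count of 6, without the 5% highest doublet scores and with the mean of each cell's CPM, passed as the same. In total, 46 of 62 alternative values of the main results were the same by these limits. The 76 genes highest in enterocyte-like cells became 75 to 84 under all 7 alternatives. None of the 17 genes past 1.5-fold reversed in direction under the 6 alternatives run for single genes, but not all stayed past it. With cells thinned to 3000 UMIs the median of all genes was 0.11. Slc5a8 (-0.39), Slc28a3 (-0.20), Slc44a4 (-0.38), Slc13a1 (-0.19) and Slc31a2 (-0.21) then lay within 1.5-fold. So did Slc1a5 (0.63) and Slc29a1 (0.64). The thinned count of 7 lower genes, which passed as the same, was thus not made of the same genes. The log2 ratio of Slc6a20a ranged from 1.15 to 1.49, Slc7a15 from 1.48 to 1.90, Slc6a14 from -2.19 to -1.27 Slc35b1 from -0.89 to -0.70, Slc39a10 from 0.75 to 0.999, Slc16a3 from -2.01 to -1.43 and Slc31a2 from -0.81 to -0.21. No paired analysis was possible because each genotype has 1 library. Depth limits the classes with few cells: in Tipe0-/- lymphocyte-like cells 1 UMI is 10.8 CPM.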
